A study of Bos indicus with 55 samples.

Results

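The comparison set microRNAs (miRNAs) in extracellular vesicles (EVs), membrane-bound particles shed by cells, of 12 bovine nuclear transfer conceptuses against those of 6 in vivo conceptuses. A conceptus is the embryo with its developing membranes. The 18 libraries were chosen by their sample titles alone, out of 28 EV libraries and 55 samples in the series. The other 10 EV libraries came from conceptuses made by in vitro fertilisation (IVF). They entered the fit to help estimate the spread between libraries. They also counted in the low count filter, which decided the entries tested, and in the scaling. Nuclear transfer conceptuses comprised 5 female and 7 male ones. They grow from an egg whose own nucleus has been exchanged for that of a donor cell. In vivo conceptuses, conceived after artificial insemination, comprised 3 female and 3 male ones. All were day 16 conceptuses that shed their EVs over 6 h in medium, and the vesicles were then pelleted for RNA extraction. Each of the 18 libraries carried a code of its own in the description label, and on that basis the replicates were taken as separate conceptuses. That label does not say what the code stands for. The labels give the species of every sample as Bos indicus, while the design text puts the conceptuses under the taurine subspecies. Donor cells are not identified in the labels, so sex and donor cell cannot be told apart within the nuclear transfer group.

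A miRNA is a short RNA that guides a silencing complex to matching messenger RNAs and so lowers their translation and stability. At this stage the ruminant conceptus elongates and signals to the uterine lining, and EVs are one route by which its RNA can reach maternal cells. Nuclear transfer asks the egg to reprogram the nucleus of a differentiated cell, and cattle conceptuses made this way are known for placental faults. In a bulk EV library, fewer vesicles of a kind and less of an RNA per vesicle cannot be told apart.

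The deposited table held whole read counts for 1024 miRNA entries, of which 613 had a count in these 18 libraries and 240 passed the low count filter. Total counts ran from 69424 to 603579 in nuclear transfer libraries (median 120883) and from 39263 to 400928 in in vivo libraries (median 74370). Nuclear transfer female replicate 3 and in vivo male replicate 3 held more than 400000 counts each. In vivo female replicate 3 and in vivo male replicate 2 held fewer than 50000 each. Levels are given as CPM, counts relative to library size after TMM scaling, which evens out differences in composition between libraries. The miR-200 family, typical of epithelia such as trophectoderm, took 0.419 to 9.11% of the counts in nuclear transfer libraries (median 2.46%) and 1.06 to 7.61% in in vivo libraries (median 2.91%). Since it is typical of epithelia at large, its presence does not show that the vesicles came from the conceptus. Markers of EV membranes and proteins are not part of a miRNA table.

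One miRNA of 240, miR-1298, was lower in nuclear transfer EVs by edgeR, and none was higher. That is 0.417% of the entries tested. At an unadjusted p under 0.05 stood 27 entries (11.2%), of which 8 had a higher level in nuclear transfer EVs (3.33%) and 19 a lower one (7.92%). The contrast averages the difference within females and that within males, so each sex counts equally. The median log2 fold over all 240 entries was 0.15, and 107 of them (44.6%) lay below 0. The 12 nuclear transfer and 6 in vivo libraries overlapped for every entry, so 0 of 240 (0%) separated the groups. Counts of libraries above or below a value of the other group are given for single entries below. The share of all 240 entries with such counts was not taken, so they describe the entry only. Folds below -2 belonged almost wholly to entries of low abundance, many of them miRNAs known from neurons, as the plot of fold against abundance shows.

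**Figure D1:**
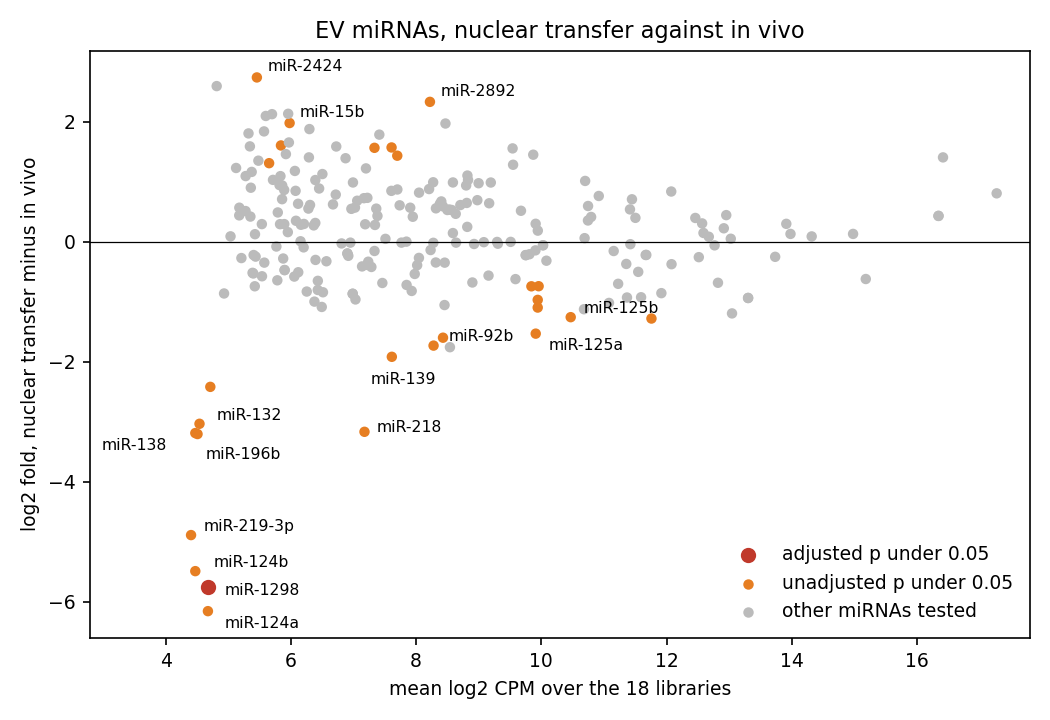
Each point is 1 of the 240 miRNAs tested, with its mean log2 CPM over the 18 libraries on the x axis and its fitted log2 fold of nuclear transfer minus in vivo on the y axis. The red point is miR-1298 at -5.75, the 1 miRNA past an adjusted p of 0.05, and the orange points are the other entries among the 27 at an unadjusted p under 0.05.

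miR-1298, which lies within a serotonin receptor gene in mammals and is known from brain, was close to absent from nuclear transfer EVs. Among nuclear transfer libraries it had 2 counts in female replicate 3, 1 in female replicate 5, 1 in male replicate 5 and 0 in the other 9. Among in vivo libraries it had 32 counts in female replicate 3, 29 in male replicate 2, 13 in male replicate 3, 3 in male replicate 1 and 0 in female replicates 1 and 2. The groups overlapped at 0, because 2 of 6 in vivo libraries also had no count. miR-1298 passed the low count filter only because the IVF libraries were counted in it. With the 18 libraries alone it was not tested. The fitted log2 fold equalled -5.75 (SE 1.32, adjusted p = 0.0389 by edgeR). Its size depends on the small prior count of the fit, since most nuclear transfer libraries were at 0, and it was -3.32 with a prior count of 2.

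Pooled rates set the same groups side by side without a prior count. They divide summed counts by summed totals, without TMM scaling, so deep libraries weigh more. In vivo male replicate 3 held 400928 of the 500873 counts of in vivo males. Over female libraries miR-1298 stood at 0.315 counts per 100k in nuclear transfer EVs (3 counts) and 13.4 in in vivo EVs (32 counts), 42.7-fold lower (95% interval 13.4 to 218). Over male libraries it stood at 0.101 per 100k in nuclear transfer EVs (1 count) and 8.98 in in vivo EVs (45 counts), 88.6-fold lower (15.1 to 3575). The intervals cover counting error alone, not the spread between conceptuses. All 32 in vivo female counts came from replicate 3, and without that library the female rate was 0.315 per 100k in nuclear transfer EVs and 0 in in vivo EVs, so the lower female rate rests on 1 conceptus. Over males the fold was 34.2 without in vivo male replicate 2 and 316 without in vivo male replicate 3. Without nuclear transfer male replicate 5, which held the 1 count, it was at least 23.97. Within females the log2 fold equalled -4.89 (SE 1.89, adjusted p = 0.688 by edgeR). Within males it was -6.61 (SE 1.80, adjusted p = 0.0721 by edgeR). The call rested on few libraries. It ended in 11 of 28 fits that left out 1 library each: without in vivo female replicate 3 (log2 fold -2.29, adjusted p = 0.995 by edgeR), without in vivo male replicate 2 (-4.75, adjusted p = 0.200 by edgeR) and without any of 9 nuclear transfer libraries (adjusted p = 0.0616 to 0.140 by edgeR). The 9 were female replicates 1, 3, 4 and 5 and male replicates 1, 2, 5, 6 and 7. In the other 17 fits the adjusted p by edgeR ran from 0.00817 to 0.0428.

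Other neural miRNAs had the same sparse pattern, although none of them passed the test over all entries. miR-124, an abundant miRNA of neurons that represses non-neuronal transcripts, is listed as miR-124a and miR-124b, whose counts kept a ratio of 2 within 1.5 counts in every library. They are therefore 1 measurement. miR-124a had 8 counts in nuclear transfer female replicate 3 and 0 in the other 11 nuclear transfer libraries. In in vivo libraries it had 46 counts in male replicate 2, 28 in female replicate 3, 20 in male replicate 3, 2 in male replicate 1 and 0 in female replicates 1 and 2. The log2 fold stood at -6.16 (SE 1.62, adjusted p = 0.113 by edgeR). With 0 counts in 7 male nuclear transfer libraries and 68 in 3 male in vivo libraries, its pooled male rate was at least 44.6-fold lower, counting 3 counts over the group as the floor. In females it was 14.0-fold lower (95% interval 6.22 to 35.6), but all 28 in vivo female counts came from replicate 3 and the in vivo rate was 0 without it. The male bound was 15.7 without in vivo male replicate 2 and 158 without in vivo male replicate 3.

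miR-219-3p, a product of a gene known for driving oligodendrocyte maturation, was found in the same libraries. It had 4 counts in nuclear transfer female replicate 3 and 0 in the other 11, against 15, 8, 6 and 2 counts in in vivo female replicate 3 and male replicates 2, 3 and 1. edgeR gave a log2 fold of -4.89 (SE 1.51, adjusted p = 0.176), and the pooled male rate was at least 10.5-fold lower. That bound was 5.69 without in vivo male replicate 2 and 32.9 without in vivo male replicate 3. miR-138, known from dendrites of neurons, had a male nuclear transfer library with counts. Its 18 nuclear transfer counts all came from male replicate 4, while in vivo libraries had 8 in female replicate 3, 8 in male replicate 2, 7 in male replicate 3 and 1 in female replicate 2. In females its pooled rate was at least 12.01-fold lower in nuclear transfer EVs, and at least 1.68-fold lower without in vivo female replicate 3. In males it was 1.64-fold lower with an interval from 0.769 to 3.45, and the direction turned without in vivo male replicate 2, at a fold of 0.830.

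miR-218 and miR-132 were less sparse. miR-218, known from motor neurons, ran from 0 to 309 CPM in nuclear transfer libraries (median 93.2), against 0 to 2886 in in vivo libraries (median 405). Its fitted log2 fold equalled -3.17 (SE 1.02, adjusted p = 0.176 by edgeR), -2.83 within females and -3.50 within males. Its pooled rate was 8.43-fold lower in females (95% interval 6.65 to 10.7) and 8.12-fold lower in males (6.33 to 10.5). The female fold was 1.63 without in vivo female replicate 3 and 14.6 without in vivo female replicate 2, and the male one was 4.13 without in vivo male replicate 2 and 25.8 without in vivo male replicate 3, values outside the counting intervals. In in vivo EVs most of its counts again came from 3 libraries, with 187 in female replicate 3, 171 in male replicate 2 and 118 in male replicate 3. miR-132, which neuronal activity induces and which was not on the neural list, had 1 to 4 counts in 5 nuclear transfer libraries and 1 to 12 in 4 in vivo libraries, with a log2 fold of -3.04 (SE 1.08, adjusted p = 0.262 by edgeR).

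**Figure D2:**
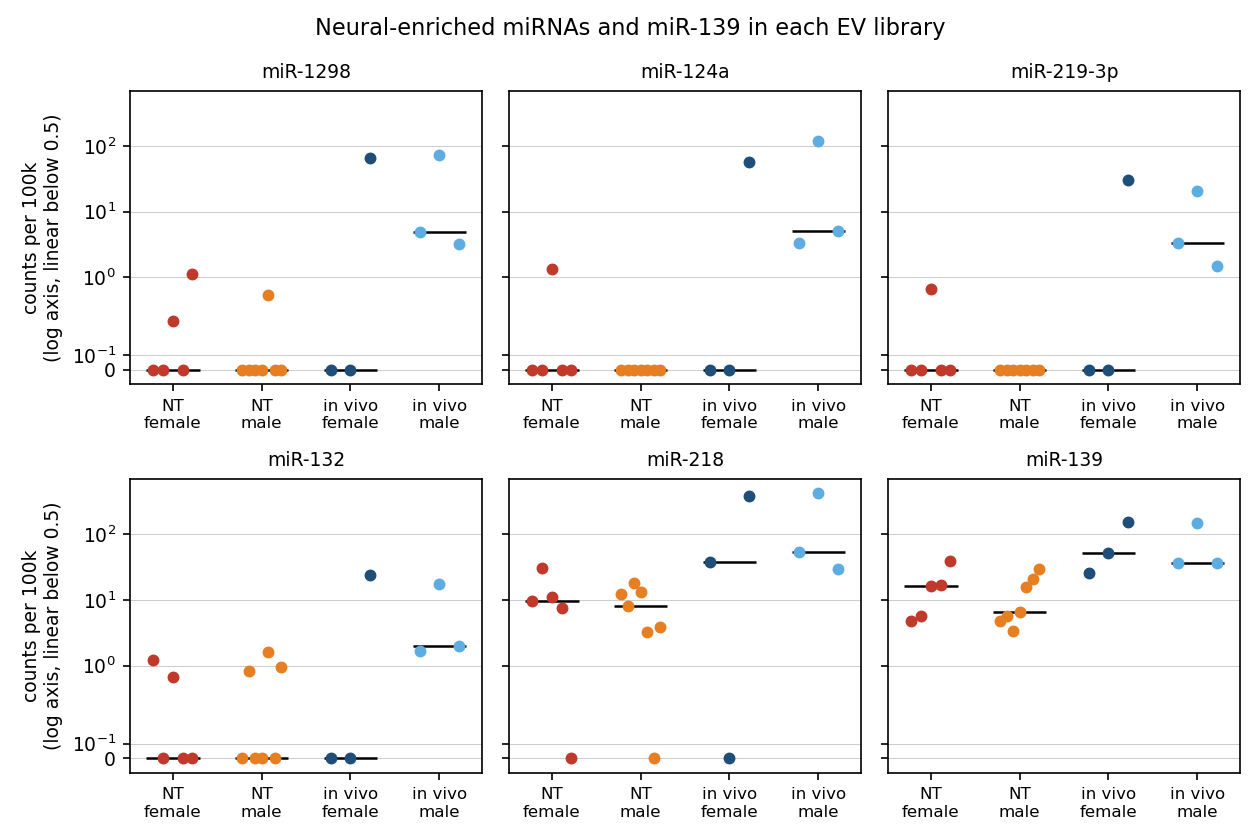
Each point is 1 EV library, with counts per 100k on a log axis that is linear below 0.5, and the bar is the group's median. Nuclear transfer (NT) females and males stand left of in vivo females and males. In vivo female replicate 3 and male replicate 2 are the highest points in the in vivo groups for miR-1298, miR-124a, miR-219-3p, miR-132, miR-218 and miR-139.

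The neural-enriched list, chosen with earlier results of these data known, held 16 entries. Of these 14 had a count in the 18 libraries and 12 passed the filter. Of the 12, 10 had a negative fold and 7 were lower at an unadjusted p under 0.05, beside 7.92% of all entries, with miR-1298 the 1 called. Their median log2 fold was -2.22, beside 0.15 over all 240, and it was -2.13 within females and -1.87 within males. The 7 are fewer measurements than entries, since miR-124a and miR-124b share reads. Among the 12, miR-129 and miR-129-5p had nearly the same totals in the 18 libraries, 20131 and 20051 counts. Their male minus female differences were also close, at -2.66 and -2.65, so they may not be separate measurements. A miRNA could pass the filter here through in vivo libraries in which it was high, alone or with IVF ones. With the 18 libraries alone, miR-1298, miR-124a, miR-124b and miR-219-3p did not pass. Their negative folds are therefore partly set by the filter, and these counts and medians are no test of the list. The abundant members lay nearer to 0 and did not share a pattern. miR-9, which regulates neural progenitors and is the list's most abundant member, ran from 2872 to 24017 CPM in nuclear transfer libraries (median 5559) and from 5399 to 45964 in in vivo libraries (median 12231). Its log2 fold came to -1.19 (SE 0.60, adjusted p = 0.392 by edgeR), and it was 0.03 without the 2 shallowest in vivo libraries. miR-129-5p, another abundant member, came to -0.22 (SE 0.62, adjusted p = 0.854 by edgeR), with 1.11 within females and -1.55 within males. miR-9-3p, from the other arm of the miR-9 hairpin, had the opposite signs, at -1.42 within females and 2.00 within males. miR-128, a brain miRNA named here, like miR-9, miR-9-3p and miR-129-5p, after its values were seen, ran from 937 to 5980 CPM in nuclear transfer libraries (median 2830) and from 2714 to 11782 in in vivo libraries (median 7750). This is a log2 fold of -1.28 (SE 0.53, adjusted p = 0.346 by edgeR).

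The summed counts of miR-1298, miR-124a, miR-219-3p, miR-132 and miR-138 showed how unevenly these sparse miRNAs were spread. Among nuclear transfer libraries the sum was highest in male replicate 4 at 13.1 per 100k, all of it miR-138, and reached 2.98 in female replicate 3. Among in vivo libraries it was 249.6 per 100k in male replicate 2, 193 in female replicate 3, 13.5 in male replicate 3, 13.2 in male replicate 1, 0.993 in female replicate 2 and 0 in female replicate 1. The 2 in vivo libraries with the highest sums were the 2 with the lowest total counts, 39263 and 49179. Without both, the log2 fold of miR-1298 was -1.09 (adjusted p = 0.963 by edgeR) and 0 members of the list stood at an unadjusted p under 0.05. Leaving out in vivo female replicate 3 alone left 1 such member of the list. The part of library depth in this pattern was not tested. In IVF EVs, which the fold does not use, the sum was highest in male replicate 3 at 324 per 100k (41396 total counts) and female replicate 4 at 90.5 per 100k (121539 total counts). There miR-1298 had 69 counts in 5 of 10 libraries and miR-124a had 146 counts in 5 of 10.

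Beyond the neural list, miR-139 and miR-125b each had 11 of 12 nuclear transfer libraries below the lowest in vivo library. The share of all entries with that count was not taken, so how unusual it is cannot be said. miR-139 is encoded within a phosphodiesterase gene and was listed here among vascular and mesenchymal miRNAs. It ran from 49.4 to 327 CPM in nuclear transfer libraries (median 108) and from 260 to 979 in in vivo libraries (median 388). The exception among nuclear transfer libraries was female replicate 5 at 327 CPM. The difference on the log2 scale was -1.92 (SE 0.56, adjusted p = 0.113 by edgeR), with -1.62 within females and -2.21 within males. It had a count in all 18 libraries, so its fold does not depend on a floor.

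miR-125b and miR-125a, of the family founded by the worm timing miRNA lin-4, had lower levels in most nuclear transfer libraries. miR-125b ran from 265 to 5800 CPM in nuclear transfer libraries (median 1102) and from 2215 to 4743 in in vivo libraries (median 2774). Nuclear transfer female replicate 2 at 5800 CPM was above every in vivo library, while the other 11 were below all of them. The log2 fold of miR-125b was -1.26 (SE 0.46, adjusted p = 0.278 by edgeR). miR-125a had a log2 fold of -1.53 (SE 0.57, adjusted p = 0.278 by edgeR), and 10 of 12 nuclear transfer libraries lay below the in vivo median. Both family members tested were negative and at an unadjusted p under 0.05, beside 7.92% of all entries lower at that threshold. The miR-99 and miR-100 family, listed apart from miR-125, had 3 tested members, all negative, with a median of -0.93. Of these miR-99b stood at -1.10 (SE 0.47), miR-99a-5p at -0.93 (SE 0.52) and miR-100 at -0.86 (SE 0.56), and miR-99b alone had an unadjusted p under 0.05.

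The HOX-cluster miRNA miR-196b and the imprinted miRNA miR-433 were also among the entries with the largest negative folds. miR-196b, encoded in a HOX cluster, had 1 to 3 counts in 4 nuclear transfer libraries and 1 to 15 in 4 in vivo libraries. Its log2 fold came to -3.21 (SE 1.07, adjusted p = 0.200 by edgeR). In vivo female replicate 3 had no count of it, so the miR-196b counts did not come from the library that led miR-1298 in females. Of other HOX-cluster miRNAs, miR-10a and miR-10b stood at -0.68 (SE 0.68) and -1.02 (SE 0.51), neither past an unadjusted p of 0.05. Grouped by name, the miR-196 entries together stood at -1.07 (SE 0.85), also not past it. The value of miR-196b therefore does not stand for its whole family.

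The DLK1-DIO3 cluster, an imprinted locus whose miRNAs come from the maternal chromosome and whose expression is sensitive to reprogramming, had 59 entries, 48 with a count and 16 tested. Of the 16, 7 were positive and 9 negative, with a median of -0.34. miR-433 had 0 to 3 counts in each nuclear transfer library and 0 to 8 in each in vivo library, and its log2 fold equalled -2.42 (SE 0.96, adjusted p = 0.311 by edgeR). miR-127, which silences the retrotransposon-derived gene RTL1 in placenta, ran from 45.5 to 687 CPM in nuclear transfer libraries (median 291) and from 209 to 1958 in in vivo libraries (median 522). The log2 fold stood at -1.60 (SE 0.68, adjusted p = 0.378 by edgeR). Within females 13 of the 16 were negative, beside 43.3% of all entries, with a median of -0.55 and 1 at an unadjusted p under 0.05. Within males 8 were positive and 8 negative. No direction was shared across this locus over both sexes or within males.

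miR-92b and miR-29a complete the lower entries named here. miR-92b shares its seed with miR-25 and miR-92a but is encoded at a locus of its own. It ran from 22.1 to 926 CPM in nuclear transfer libraries (median 227) and from 90.5 to 1507 in in vivo libraries (median 929), and all 12 nuclear transfer libraries lay below the in vivo median. edgeR gave a log2 fold of -1.73 (SE 0.66, adjusted p = 0.278). miR-29a, a repressor of collagen transcripts, had a log2 fold of -0.74 (SE 0.34, adjusted p = 0.392 by edgeR). Its relative miR-29d-5p, an entry with 0 to 33.3 CPM in in vivo libraries, was on the other side at 1.31 (SE 0.56, adjusted p = 0.378 by edgeR).

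Among the 8 entries with higher levels at an unadjusted p under 0.05, miR-17-5p, miR-20a and miR-15b belong to families that promote or restrain cell division. miR-17-5p, of the growth-promoting miR-17 to miR-92 cluster, ran from 52.4 to 991 CPM in nuclear transfer libraries (median 153) and from 0 to 238 in in vivo libraries (median 76.3). Its fitted log2 fold equalled 1.57 (SE 0.76, adjusted p = 0.392 by edgeR). miR-20a, of the same cluster, stood at 1.44 (SE 0.68), with 9 of 12 nuclear transfer libraries above the in vivo median. Over the related clusters 8 of 15 entries were tested, 7 positive and 1 negative with a median of 0.35, and the negative one was miR-92b.

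miR-15b, which targets cyclins, ran from 12.3 to 188 CPM in nuclear transfer libraries (median 71.6) and from 0 to 86.9 in in vivo libraries (median 24.2). This is a log2 fold of 1.98 (SE 0.74, adjusted p = 0.278 by edgeR), and 11 of 12 nuclear transfer libraries lay above the in vivo median. Behind these values stood 1 to 34 counts in a nuclear transfer library and 0 to 12 in an in vivo library. The depth therefore limits what can be said of it.

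The other 4 named with positive folds are cattle entries of no role known here. miR-2892, listed among entries that overlap other small RNAs, ran from 49.2 to 4336 CPM in nuclear transfer libraries (median 823) and from 0 to 622 in in vivo libraries (median 36.0), at a log2 fold of 2.33 (SE 1.06, adjusted p = 0.392 by edgeR). The fold was 4.79 within males and -0.13 within females. miR-2424 likewise stood at 7.02 within males, where all 3 in vivo libraries were at 0, and at -1.53 within females. Its pooled log2 fold of 2.74 (SE 1.29) therefore averages different values. miR-2484 at 1.57 (SE 0.72) and miR-11986b at 1.61 (SE 0.72) were positive in both sexes.

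Differences in the most abundant cargo were smaller than the spread between libraries. miR-148a, which is identical in its counts to miR-148d and is abundant in many secretory epithelia, averaged 98984 ± 37139 CPM in nuclear transfer EVs (SD, n = 12) and 72778 ± 36639 in in vivo EVs (SD, n = 6). The difference on the log2 scale was 0.43 (SE 0.32, adjusted p = 0.515 by edgeR). miR-21-5p, a general growth-associated miRNA, had a log2 fold of 0.09 (SE 0.28), and miR-26a, which is raised as cells differentiate, one of 0.13 (SE 0.36). Both folds changed sign in some alternatives and in some fits with 1 library left out, so they carry no direction. miR-7, known from endocrine cells, stood at 0.30 (SE 0.66), over a range from 4274 to 84002 CPM in nuclear transfer libraries and from 2717 to 48236 in in vivo libraries.

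miR-2887 and miR-2904, entries that overlap other small RNAs, took the largest part of many libraries. Together they held 5.17 to 59.4% of the counts in nuclear transfer libraries (median 41.4%) and 4.11 to 37.1% in in vivo libraries (median 21.1%). The difference was 13.0 percentage points as the mean of both sexes (exact permutation test within sex, two-sided, p = 0.0824 over 6720 arrangements). In males the mean share was 46.6% in nuclear transfer EVs and 22.1% in in vivo EVs, a difference of 24.5 points (exact permutation p = 0.0167). In females it was 24.6% in nuclear transfer EVs and 23.1% in in vivo EVs (exact permutation p = 0.893). With each of the 18 libraries left out in turn, the pooled difference ran from 8.50 to 16.7 points. In 3 of these 18 runs the exact permutation p fell under 0.05. It was 0.0288 (15.4 points) without nuclear transfer female replicate 3 and 0.0433 (16.0 points) without in vivo female replicate 1. Without in vivo male replicate 1 it was 0.0461 (16.7 points). As single entries, miR-2887 had a log2 fold of 0.81 (SE 0.56, adjusted p = 0.482 by edgeR) and miR-2904 one of 1.41 (SE 0.70, adjusted p = 0.392 by edgeR).

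**Figure D3:**
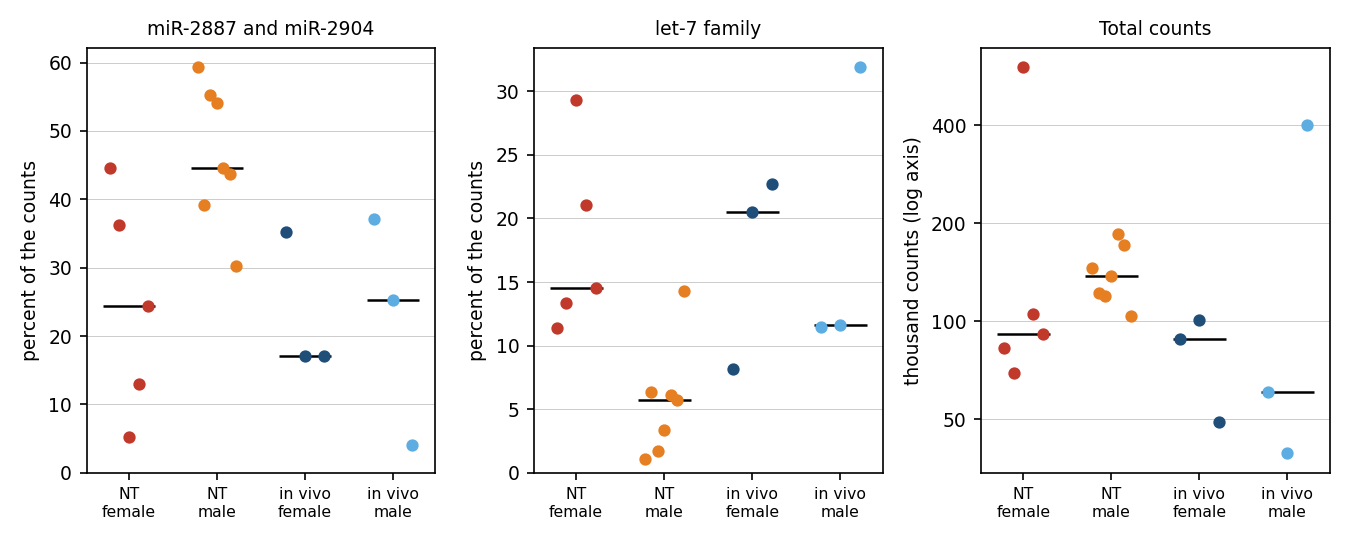
Each point is 1 EV library and the bar is the group's median, with nuclear transfer (NT) groups left of in vivo groups. The left panel gives the percent of counts in miR-2887 and miR-2904, the middle one the percent in the let-7 family, and the right one the total counts on a log axis, in units of 1000. Nuclear transfer males hold the highest shares of miR-2887 and miR-2904 and the lowest shares of let-7.

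No difference in the number of miRNAs detected passed a test. With every library reduced to 39263 counts, nuclear transfer libraries were expected to show 237 to 283 entries (median 262) and in vivo libraries 237 to 272 (median 260). The difference as the mean of both sexes was 0.277 entries (exact permutation p = 0.965). It was -12.04 in females (exact permutation p = 0.196) and 12.6 in males (exact permutation p = 0.183). Whole profiles were also compared library by library, where pairs share libraries and so get no test. Over the 240 entries, Spearman's rho of log2 CPM had a median of 0.766 over 72 pairs of a nuclear transfer and an in vivo library, 0.780 over 66 pairs of nuclear transfer libraries and 0.798 over 15 pairs of in vivo libraries. Within nuclear transfer the median was 0.826 over pairs of females, 0.804 over pairs of males and 0.737 over pairs of a female and a male.

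The contrast was then taken within each sex in the same fit. Among females edgeR called 0 of 240 entries (0%), while 11 had an unadjusted p under 0.05 (4.58%). DESeq2 and limma voom also called 0. Among males edgeR called 0 (0%), while 54 had an unadjusted p under 0.05 (22.5%), of which 22 had higher levels in nuclear transfer EVs (9.17%) and 32 lower ones (13.3%). The other fits differed in the number of male calls and in their direction. DESeq2 called 23, of which 18 were higher in nuclear transfer EVs and 5 lower, while limma voom called 12, of which 1 was higher and 11 lower. With the IVF libraries left out of the fit, edgeR called 19, of which 8 were higher and 11 lower. The female and the male fold had the same sign for 113 of 240 entries (47.1%). The difference between the male and the female contrast was called for 0 of 240 by edgeR (0%), while 45 had an unadjusted p under 0.05 (18.8%). For that difference DESeq2 called 11, of which 8 had the higher fold in males and 3 the lower, and limma voom called 0.

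**Figure D4:**
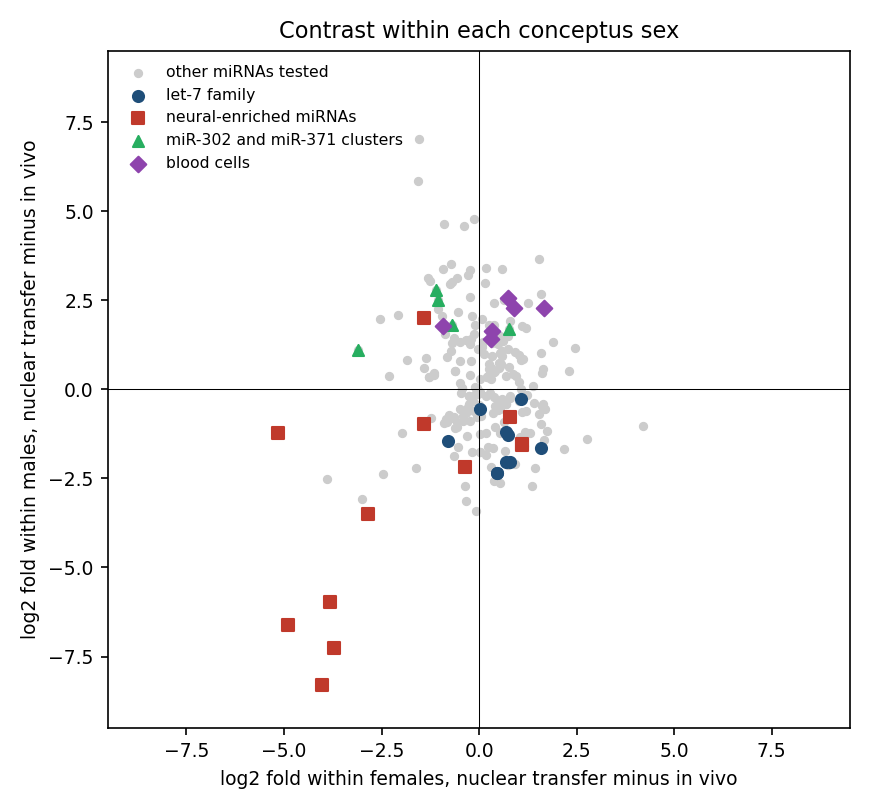
Each point is 1 of the 240 miRNAs tested, with the log2 fold of nuclear transfer minus in vivo within females on the x axis and within males on the y axis. The let-7 family lies mostly at positive female and negative male folds, the miR-302 and miR-371 clusters mostly at the reverse, and sparse neural-enriched miRNAs are negative on both axes.

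The let-7 family, which builds up as cells differentiate and represses genes of the undifferentiated state, had opposite signs in the sexes. Of 11 entries 10 were tested, with let-7b and miR-3596 sharing all counts. Within females 9 of 10 were positive, beside 56.7% of all entries, with a median of 0.69. Within males 10 of 10 were negative, beside 48.8% of all entries, with a median of -1.55, and 7 were at an unadjusted p under 0.05, beside 13.3% of all entries lower at that threshold. For the difference between the male and the female contrast, 7 of 10 were at an unadjusted p under 0.05, beside 18.8% of all entries, and 0 passed the adjusted threshold by edgeR. Over both sexes 9 of 10 were negative, with a median of -0.45 and 0 at an unadjusted p under 0.05.

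let-7e showed this most clearly. It averaged 837 ± 311 CPM in nuclear transfer females (SD, n = 5) and 521 ± 108 in in vivo females (SD, n = 3), a log2 fold of 0.68 (SE 0.60, adjusted p = 0.846 by edgeR). In males it averaged 252 ± 142 CPM in nuclear transfer EVs (SD, n = 7) and 1039 ± 662 in in vivo EVs (SD, n = 3), a log2 fold of -2.04 (SE 0.53, adjusted p = 0.0721 by edgeR). All 7 nuclear transfer males, at 88.3 to 523 CPM, lay below the 3 in vivo males, at 540 to 1790. The share of all entries separated in this way within males was not taken, so how unusual that is cannot be said. The difference between the male and the female fold was -2.73 (SE 0.83, adjusted p = 0.137 by edgeR). miR-99b and miR-125a, which are transcribed in a cluster with let-7e in mammals, had male folds of -2.58 and -2.71 and female folds of 0.39 and -0.36.

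The abundant let-7a-5p had a male fold of -2.04 (SE 0.69) and a female fold of 0.80 (SE 0.80), and let-7f had -1.21 (SE 0.49) and 0.70 (SE 0.55). let-7b stood at -2.34 within males and 0.47 within females, while let-7c was negative in both, at -1.44 and -0.81. As a share of all counts, the family took 1.07 to 14.3% in nuclear transfer males and 11.4 to 31.9% in in vivo males. In females it took 11.4 to 29.3% in nuclear transfer EVs and 8.18 to 22.7% in in vivo EVs. In males the share of miR-2887 and miR-2904 moved the other way, and with that share as a covariate 1 of 10 members stayed at an unadjusted p under 0.05 for the difference between sexes. The count was 2 without nuclear transfer female replicate 3, 4 without nuclear transfer male replicate 1, 3 or 4, 2 without in vivo female replicate 1, 1 without in vivo male replicate 3, and 0 without the 2 deepest libraries. The part of these libraries in the pattern was otherwise not tested.

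The miR-302 and miR-371 clusters, which mark pluripotent and early embryonic cells, had the reverse signs. Of 6 entries 5 were tested, all 5 positive within males with a median of 1.81, beside 51.2% of all entries. Within females 4 of 5 were negative with a median of -1.06, beside 43.3% of all entries. miR-302a averaged 890 ± 838 CPM in nuclear transfer males (SD, n = 7) and 132 ± 120 in in vivo males (SD, n = 3), a log2 fold of 2.79 (SE 1.53, adjusted p = 0.265 by edgeR). It averaged 102 ± 92.1 CPM in nuclear transfer females (SD, n = 5) and 215 ± 222 in in vivo females (SD, n = 3), at -1.09 (SE 1.38, adjusted p = 0.892 by edgeR). Nuclear transfer male replicate 2 stood apart with no count of it. miR-371 stood at 1.11 within males and -3.11 within females, a difference of 4.23 (SE 2.06, adjusted p = 0.257 by edgeR), and for 0 of the 5 members was the difference between sexes at an unadjusted p under 0.05.

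Other miRNAs with large male folds were spread over several groups. miR-10a, encoded in a HOX cluster, averaged 3669 ± 2925 CPM in nuclear transfer males (SD, n = 7) and 24122 ± 29538 in in vivo males (SD, n = 3), at -2.72 (SE 0.91, adjusted p = 0.0721 by edgeR). In vivo male replicate 3 at 58151 CPM set most of that mean. Within females miR-10a was at 1.35 (SE 1.07, adjusted p = 0.846 by edgeR). miR-92b stood at -3.13 (SE 0.89, adjusted p = 0.0721 by edgeR) within males. There all 7 nuclear transfer libraries, at 22.1 to 247 CPM, lay below the 3 in vivo libraries, at 657 to 1190. As for let-7e, the share of all entries separated so was not taken. miR-154c, of the DLK1-DIO3 cluster, stood at 4.65 (SE 1.45, adjusted p = 0.0721 by edgeR) within males and -0.89 within females. In males it ran from 50.9 to 1066 CPM in nuclear transfer EVs, against 0, 50.6 and 5.51 CPM in in vivo male replicates 1, 2 and 3.

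**Figure D5:**
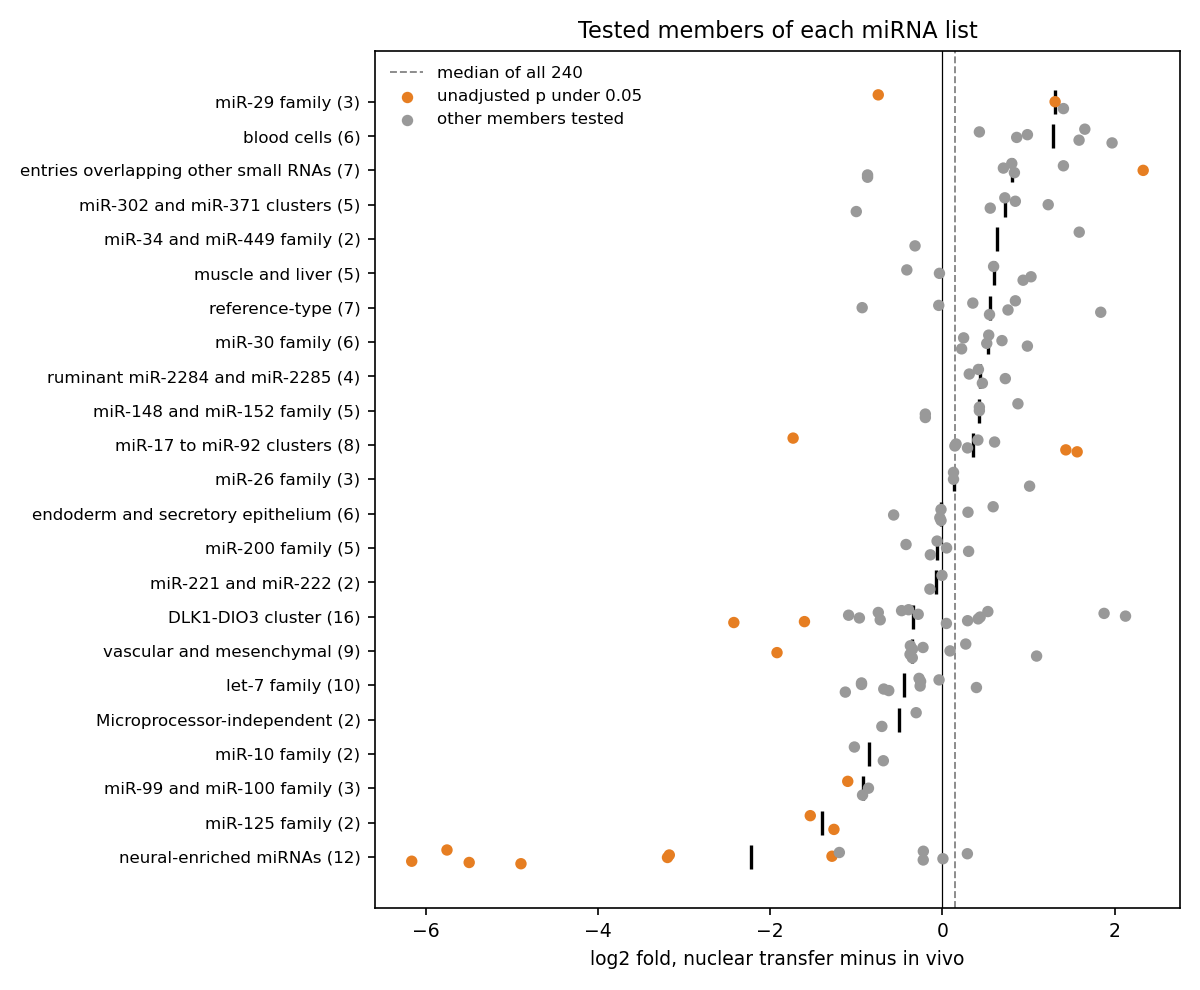
Each row is a list of miRNAs with the number tested in brackets, each point a member's log2 fold of nuclear transfer minus in vivo, and each black bar the list's median. The neural-enriched list has the lowest median at -2.22 and the miR-29 family the highest at 1.31, while the dashed line marks the median of all 240 entries at 0.15.

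miRNAs known from cells other than those of the conceptus were detected in both types. The blood cell list held 7 entries, of which 6 were tested and miR-144, of red cells, had 3 counts in the 18 libraries. All 6 had positive folds, with a median of 1.29, and 0 were at an unadjusted p under 0.05. The list took 0.0214 to 0.804% of the counts in nuclear transfer libraries (median 0.265%) and 0.0382 to 0.621% in in vivo libraries (median 0.0745%). miR-150, of lymphocytes, ran from 0 to 3973 CPM in nuclear transfer libraries (median 941) and from 2.75 to 1637 in in vivo libraries (median 19.5), at a log2 fold of 1.97 (SE 1.13, adjusted p = 0.418 by edgeR). miR-451, of red cells, stood at 0.99 (SE 1.01, adjusted p = 0.657 by edgeR).

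The muscle and liver list had 5 tested members, 3 positive and 2 negative with a median of 0.60. miR-122, the main miRNA of hepatocytes, ran from 236 to 25540 CPM in nuclear transfer libraries (median 1998) and from 111 to 5592 in in vivo libraries (median 1582). Its highest value was in nuclear transfer male replicate 4, the library that also held all nuclear transfer counts of miR-138. The log2 fold of miR-122 was 0.60 (SE 0.81, adjusted p = 0.737 by edgeR). The part of other cells in the contrast was not tested.

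Broadly expressed families are given by their medians over both sexes and then within each sex. The miR-30 family had 6 tested members, all positive with a median of 0.53, and within males 4 of them were negative. Its member miR-30c had a female fold of 1.42 (SE 0.60, adjusted p = 0.688 by edgeR) and a male fold of -0.38 (SE 0.53, adjusted p = 0.625 by edgeR). The miR-26 family had 3 tested members with a median of 0.13, and the miR-148 and miR-152 family had 5 with a median of 0.43. The counts of miR-26a and miR-26c kept a ratio of 2 within 1.5 counts, so they are 1 measurement. In the miR-200 family 2 of 5 were positive and 3 negative with a median of -0.06. Entries often used as references had a median of 0.55 over 7 members, endodermal and secretory miRNAs one of -0.01 over 6, and miR-221 and miR-222 one of -0.07. miR-2284 and miR-2285, families known from ruminants, held 146 entries, of which 63 had a count and 4 were tested, all 4 positive with a median of 0.44. Some of these lists had opposite signs in the sexes, as the let-7 family did. The miR-200 family had a median of 0.80 within females (4 of 5 positive) and -0.91 within males (5 of 5 negative), and miR-221 and miR-222 stood at 0.80 (2 of 2 positive) and -0.94 (2 of 2 negative). The miR-26 family had a median of 0.68 within females and -0.42 within males. For the difference between sexes, 2 of 5 members of the miR-200 family, 3 of 6 of the miR-30 family and 1 of miR-221 and miR-222 were at an unadjusted p under 0.05, beside 18.8% of all entries. In none of these 8 lists was a member at an unadjusted p under 0.05 over both sexes.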

How the data were processed

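Per the labels' protocols, RNA of pelleted vesicles was cleaned on silica columns with DNase and made into short-insert small RNA libraries. The submitters' processing notes name cutadapt, STAR, featureCounts, Bowtie and DESeq2 and the build ARS-UCD1.2, with no role or version for any of them. The authors deposited whole read counts per miRNA, not normalized. Every EV sample column was used.

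The 28 EV libraries entered edgeR 4.0.16 (R 4.3.3): TMM scaling, filterByExpr (minimum count 10, minimum total 15), 1 fit of 6 group means, the two-sided quasi-likelihood F test, and Benjamini-Hochberg adjustment over all entries at 0.05. Standard errors came from the fold and its F statistic. Exact 95% intervals of pooled rates and the floor of 3 counts cover counting error only. Reads had no molecular identifiers in the labels. Shares and detection were compared by exact permutation within sex. DESeq2 1.42.0 and limma 3.58.1 (voom with quality weights) were alternatives. Scripts were tested on simulated data.

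Named are miRNAs past the threshold, the 10 most abundant, the 10 largest folds in each direction at an unadjusted p under 0.05, and up to 4 of each list by p. The members and lists were chosen with earlier results of these data known. Planned grouping by seed was not run, since no mature sequences were used here, and entries were grouped by name instead. Entries with the same counts in every library (let-7b and miR-3596, miR-148a and miR-148d, miR-152 and miR-148c, miR-22-3p and miR-3600, miR-382 and miR-3578, miR-6529a and miR-6529b) are 1 measurement each.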

Additional observations from a re-analysis of the deposited data

Results flagged for a closer look

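A library was singled out where its gap to the nearest other library of its group was a large part of the group's range. Of 156 groups of values looked at, 14 had such a library. Chance singles out about 1 in 20 groups of continuous values, a rate that does not hold where most libraries have no count. In 5 of the 14 every other library was at no count, so any count stood out, and miR-124a and miR-124b among them are 1 measurement. Values are log2 CPM unless counts are named, and 3.84 is the level of no count. In nuclear transfer males, miR-1298 was 4.28 (1 count) in replicate 5 and 3.84 in the other 6. miR-138 was 7.25 in replicate 4 and 3.84 in the others. In nuclear transfer females, replicate 3 alone had counts of miR-124a at 4.87, miR-124b at 4.45 and miR-219-3p at 4.45, the others being at 3.84. That library also held 603579 counts, against 69424 to 105448 in the other 4.

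In nuclear transfer female replicate 2, miR-9 was 14.4 against 11.5 to 12.1 in the other females. In nuclear transfer male replicate 7, miR-2892 was 6.86 against 10.2 to 12.1 in the other males, and miR-100 was 9.67 against 11.3 to 12.4. In nuclear transfer male replicate 2, miR-302a was 3.84 against 8.48 to 11.2. Among in vivo libraries, miR-100 was 9.78 in male replicate 3 against 12.4 to 13.6, and that library held 400928 counts against 39263 to 100693. miR-92b was 6.71 in in vivo female replicate 1 against 9.39 to 10.6, and miR-29d-5p was 3.84 in in vivo male replicate 1 against 4.96 to 5.57.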

How the results depend on the processing

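The miR-1298 fold was negative in every alternative that tested it. With the 18 libraries alone it did not pass the filter, so the absence of a call there is no result about it. Calls over both sexes numbered 1 with other size factors, a filter at 10 CPM in 3 libraries, or no miR-2887 and miR-2904. They numbered 0 with DESeq2 (which gave miR-1298 no p), limma voom, the miR-2887 and miR-2904 share as covariate (miR-1298 adjusted p = 0.0598 by edgeR), the 18 libraries alone, or without the 2 libraries above 400000 counts (adjusted p = 0.0642 by edgeR) or the 2 under 50000. There were 3 with sex left out of the fit, 6 without a low count filter, and 0 to 5 with 1 library left out. Replicate numbers did not pair samples (r of same-numbered libraries had a median of 0.0761, and 7 of 18 were most like their own number), and the fit with the replicate block called 6. Within males the calls numbered 23 by DESeq2, 12 by voom, 18 without filter, 19 in the 18 libraries, 3 with the replicate block and 0 to 24 with 1 library left out (6 without IVF female replicate 2, 13 without nuclear transfer male replicate 7, 20 and 24 without IVF males 1 and 3). For the difference between sexes DESeq2 called 11. Name families gave 1 call of 186, and 0 to 3 with 1 library left out. Neural-list members at an unadjusted p under 0.05 numbered 3 by DESeq2 and 4 in the 18 libraries. In the latter miR-1298, miR-124a, miR-124b and miR-219-3p were not tested. For the difference between sexes, let-7 members numbered 3 by voom.

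Signs turned for miR-371 (0.62 by voom, 0.12 with sex left out, -1.40 to 2.63 with 1 library left out). miR-21-5p was -0.0207 with the 10 CPM filter, -0.0037 with the replicate block, -0.18 without the 2 shallow libraries and -0.12 to 0.18 with 1 left out. miR-26a was -0.0089, -0.0251 and -0.0529 in the same settings and -0.17 to 0.40 with 1 left out. With the share as covariate let-7a-5p was 0.13, let-7f 0.15, miR-7 -0.24 and miR-10a 0.58; with 1 library left out they ran from -1.03 to 0.0358, -0.54 to 0.0616, -0.11 to 1.39 and -1.03 to 0.10. miR-129-5p was 0.10 by voom, 0.58 with the share as covariate, 0.0277 without the 2 deep libraries and -0.625 to 0.212 with 1 left out, and miR-9 was 0.027 without the 2 shallow ones. miR-451 was -1.42 with the replicate block. The difference in detected entries was -4.93 at 20000 counts, -10.8 when 5 counts were required, and -3.58 to 3.27 with 1 library left out; that in the miR-2887 and miR-2904 share was 8.50 to 16.7 points. Other size factors moved the median male fold of all entries by 0.32 and the female one by -0.19. The cause was not tested. miR-1298 and the other sparse entries rest on few counts. With 1 library of the sex left out, the pooled female fold ran from 0 to 74.0 for miR-1298 and from 0 to 24.3 for miR-124a, and the male fold of miR-138 from 0.830 to 8.46. Alternatives leaving out pairs of libraries, and those of pooled rates, were chosen after seeing the data. The seed-group alternative was not run.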
